A study of Drosophila melanogaster with 6 samples.

Results

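The proteasome subunit genes were examined in heads of Prp31 mutant and control flies. Members were the genes whose symbol begins with Prosalpha, Prosbeta, Rpn or Rpt followed by a digit, which gave 41 of the 11836 genes in the table. Of these, 31 encode constitutive subunits, each averaging 1 FPKM or more across the 6 libraries (FPKM are sequenced fragments scaled to transcript length and library size). They comprised 13 subunits of the core particle (6 alpha and 7 beta) and 18 of the regulatory particle (10 of its base and 8 of its lid). The other 10 are paralogues with a T or R suffix, of which 1 passed the same filter. Prosalpha1, the remaining alpha subunit, was not analysed here.

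Poly(A) RNA was sequenced from 3 libraries of flies homozygous for Prp31_P18 and 3 libraries of control flies of the genotype white (w). Prp31 encodes a splicing factor of the spliceosome, and the study uses the mutant as a fly model of an inherited human retinal degeneration. Both groups were adults aged 2 days and kept at 25 °C, with 50 heads pooled per library and both sexes in the series. The labels do not give the lesion of the P18 allele, the share of each sex per pool or the eye pigment genotype of the mutants, and no label says that replicates were separate cultures, so p-values here reflect the spread between these libraries alone.

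The proteasome is the protease that degrades proteins marked with ubiquitin. Its core particle is a barrel of stacked rings: outer rings of alpha subunits gate the entrance, and inner rings of beta subunits hold the proteolytic sites. The regulatory particle caps the barrel: its base unfolds substrates with a ring of ATPases (Rpt1 to Rpt6) and binds ubiquitin, and its lid removes the ubiquitin chain. In flies and mammals the subunit genes are controlled together, in part by the transcription factor Cnc and its mammalian relatives, and male germ cells of the fly use paralogous subunits.

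Of 8465 genes that averaged 1 FPKM or more, limma on log2(FPKM + 1) with Benjamini-Hochberg adjustment called 299 as higher and 661 as lower in the mutants (adjusted p under 0.05), or 360 and 454 after median-ratio scaling of the libraries. Prp31, the mutated gene, averaged 13.76 ± 0.362 FPKM in the mutants and 13.95 ± 0.113 FPKM in the controls (SD, n = 3 each; limma adjusted p = 0.872). The labels give reads only as an average over libraries, so the depth of each library is unknown. In the low values 1 read was worth 0.953 to 1.08 times its worth in mutant replicate 1, and counting errors were not computed.

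All 31 constitutive subunits had a lower mean in mutant heads, and 4 of them fell past the threshold: Rpn1, Rpn2 and Rpn13 of the base and the base ATPase Rpt6. No subunit rose, beside 3.53% of all genes tested that were called as higher. The 4 calls are 12.9% of the subunits, beside 7.81% of all genes tested that were called as lower, so the calls alone set the subunits little apart. At an unadjusted p under 0.05, 18 of 31 subunits (58.1%) were lower, beside 19.2% of all genes tested. The median log2 fold change, mutant over control, was -0.33 for the 31 subunits and -0.07 for all genes tested, of which 64.1% had a fold change below 0. Every fold change below is a difference of log2(FPKM + 1) values, which understates low genes. In pooled heads, fewer cells of a type with much of a transcript and less of it per cell cannot be told apart.

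**Figure D1:**
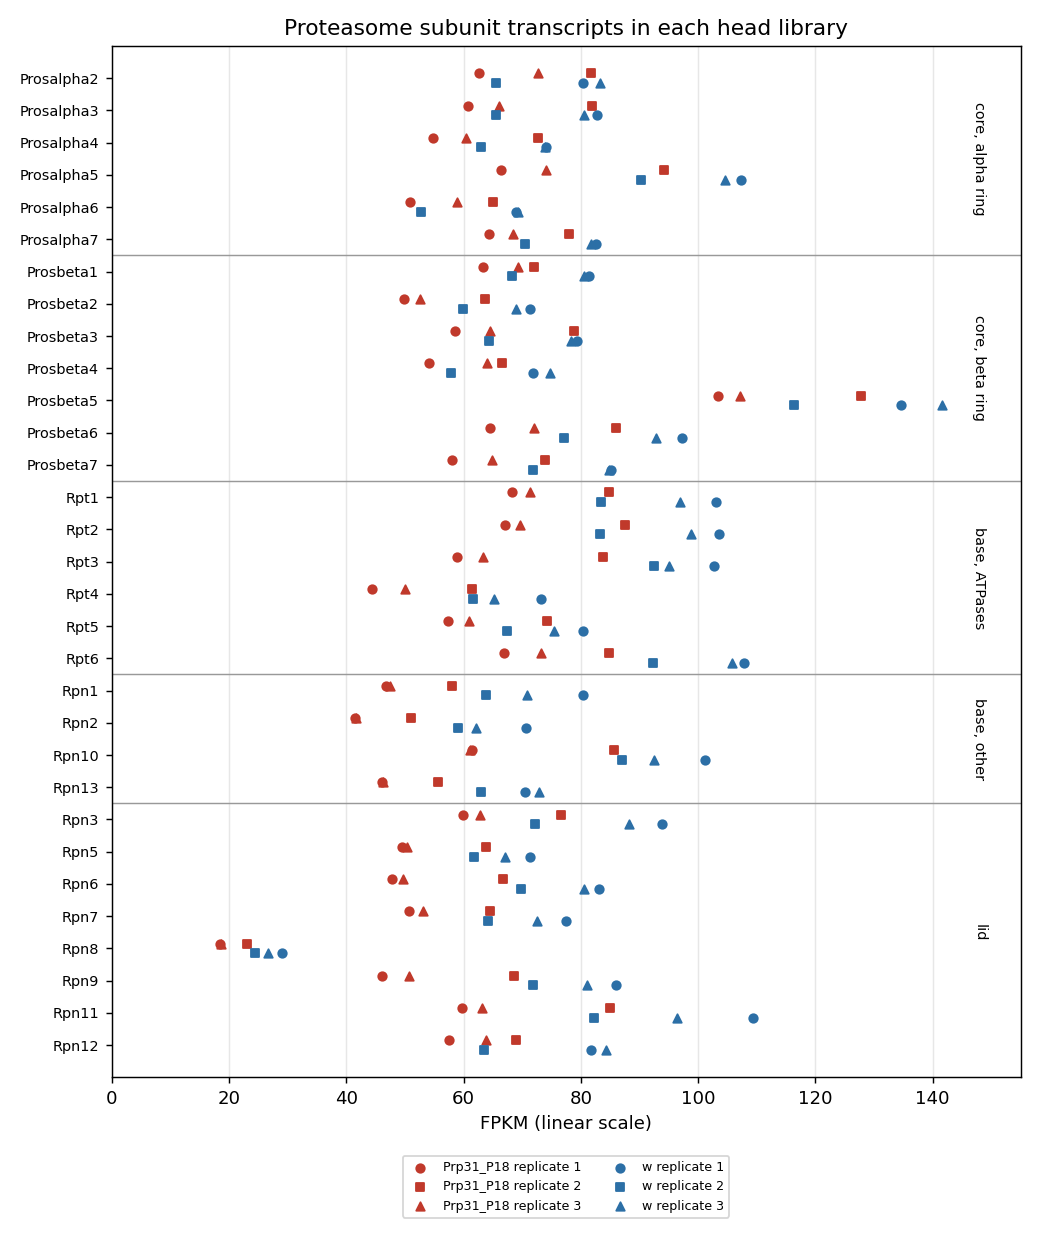
FPKM of the 31 constitutive subunits (horizontal axis, linear) in each of the 6 libraries, with Prp31_P18 replicates in red above w replicates in blue and the marker shape giving the replicate number. In all 31 rows the highest mutant library is replicate 2 and the lowest control library is replicate 2.

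The subunits moved together from library to library. Their summed level was 1760, 2287 and 1892 FPKM in mutant replicates 1 to 3, against 2642, 2186 and 2547 FPKM in control replicates 1 to 3. The sums overlapped because mutant replicate 2 lay above control replicate 2. Mutant replicate 2 was the highest mutant library in 31 of 31 subunits, and control replicate 2 the lowest control library in 31 of 31. Mutant replicate 1 was the lowest of its group in 30 subunits, and control replicate 1 the highest of its group in 25. The median SD of the subunits within a group was 0.18 in log2, and that of all genes tested 0.12. The mean sum was 1979 ± 274 FPKM in the mutants and 2459 ± 241 FPKM in the controls (SD, n = 3 each), so mutant heads had 80.5% of the control sum.

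The non-ATPase subunits of the base gave the clearest separation: all 4 had mutant libraries wholly below control libraries, and 3 of 4 fell, beside 21.8% and 7.81% of all genes tested. Rpn2, a large scaffold subunit at the top of the base (3R, 29153524 to 29157255, plus strand, BDGP6), had 41.5, 51.0 and 41.7 FPKM in mutant replicates 1 to 3, against 70.7, 59.0 and 62.1 FPKM in control replicates 1 to 3. Its highest mutant value lay below its lowest control value, and the log2 fold change was -0.51 (SE 0.11, limma adjusted p = 0.0288). Rpn13, a ubiquitin receptor (2R, 13958545 to 13960404, minus strand), had 46.0, 55.7 and 46.2 FPKM in the mutants, against 70.4, 63.02 and 72.9 FPKM in the controls. The groups were again separate, and the log2 fold change was -0.48 (SE 0.11, limma adjusted p = 0.0289).

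Rpn1, the second large scaffold and a docking site for ubiquitin and shuttle proteins (3L, 19915051 to 19918160, plus strand), had 46.8, 58.0 and 47.5 FPKM in mutant heads, against 80.3, 63.8 and 70.8 FPKM in control heads. Its log2 fold change was -0.49 (SE 0.12, limma adjusted p = 0.0419), again with no overlap. Rpn10, the other ubiquitin receptor of the base, had 61.4, 85.6 and 61.1 FPKM in the mutants, against 101, 87.0 and 92.4 FPKM in the controls. These did not overlap either, but only by the narrow gap between mutant replicate 2 and control replicate 2, and Rpn10 did not pass (-0.44, SE 0.14, limma adjusted p = 0.0983).

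The 6 ATPases form the ring that unfolds substrates and opens the core. Of these, Rpt6 fell and 5 did not pass, beside 7.81% of all genes tested that were called as lower. In 3 of the 6 all mutant libraries lay below all control libraries, beside 21.8% of all genes tested. Rpt6 (X, 21316052 to 21317663, plus strand) was the most abundant base transcript per length, with 66.9, 84.8 and 73.3 FPKM in mutant heads, against 108, 92.3 and 106 FPKM in control heads. The groups were separate, and the log2 fold change was -0.44 (SE 0.12) with a limma adjusted p of 0.049996, just under the threshold. The gene shares bases with CG1801 on the opposite strand, and the use of strand in counting is not given in the sources used here.

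Rpt3 had 59.0, 83.9 and 63.2 FPKM in mutant heads, against 103, 92.5 and 95.1 FPKM in control heads. Its log2 fold change was the largest of the ATPases at -0.50 (SE 0.14), and it missed the threshold (limma adjusted p = 0.0581) although its groups did not overlap. Rpt4 was also separate, by the gap between 61.4 FPKM in mutant replicate 2 and 61.5 FPKM in control replicate 2 (-0.36, limma adjusted p = 0.127). Rpt1 had 68.2, 84.8 and 71.4 FPKM in mutant heads, against 103, 83.4 and 96.9 FPKM in control heads, and Rpt2 had 67.0, 87.5 and 69.6 FPKM, against 104, 83.2 and 98.8 FPKM. In both of these, and in Rpt5, the only overlap was that of mutant replicate 2 with control replicate 2. Their log2 fold changes were -0.33 for Rpt1, -0.35 for Rpt2 and -0.22 for Rpt5, and none passed (limma adjusted p 0.126 to 0.287). Rpt5 lay nearest to 0 of the 18 regulatory subunits.

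None of the 8 lid subunits passed the test, beside 7.81% of all genes tested that were called as lower. However, 7 were lower at an unadjusted p under 0.05 in limma and 3 had separate groups, beside 19.2% and 21.8% of all genes tested. Rpn9, a structural lid subunit, had 46.1, 68.6 and 50.7 FPKM in mutant heads, against 85.9, 71.8 and 81.1 FPKM in control heads. This was the largest log2 fold change of all 31 subunits, -0.54, but also one of the widest in error (SE 0.15, limma adjusted p = 0.065). Rpn6, which braces the lid against the base and the core, had 47.8, 66.7 and 49.6 FPKM in the mutants, against 83.2, 69.8 and 80.6 FPKM in the controls (-0.51, SE 0.14, limma adjusted p = 0.0594).

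Rpn11, the metalloprotease that cuts ubiquitin chains from substrates, was the most abundant transcript per length among the lid subunits under the naming rule. It had 59.7, 85.0 and 63.1 FPKM in mutant heads, against 109, 82.2 and 96.3 FPKM in control heads, and mutant replicate 2 lay above control replicate 2 (-0.47, SE 0.16, limma adjusted p = 0.108). Its partner Rpn8, which has the same fold without the catalytic site, was the least abundant of the 31 subunits. It had 18.5, 23.1 and 18.6 FPKM in the mutants, against 29.1, 24.4 and 26.7 FPKM in the controls. These groups were separate, but Rpn8 did not pass (-0.40, SE 0.11, limma adjusted p = 0.0587). Rpn3, Rpn5, Rpn7 and Rpn12, further structural subunits, overlapped between groups, with log2 fold changes of -0.35, -0.29, -0.35 and -0.26 (limma adjusted p 0.110 to 0.244). The largest of these genes by level, Rpn3, averaged 66.5 ± 8.93 FPKM in the mutants and 84.8 ± 11.2 FPKM in the controls (SD, n = 3 each).

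**Figure D2:**
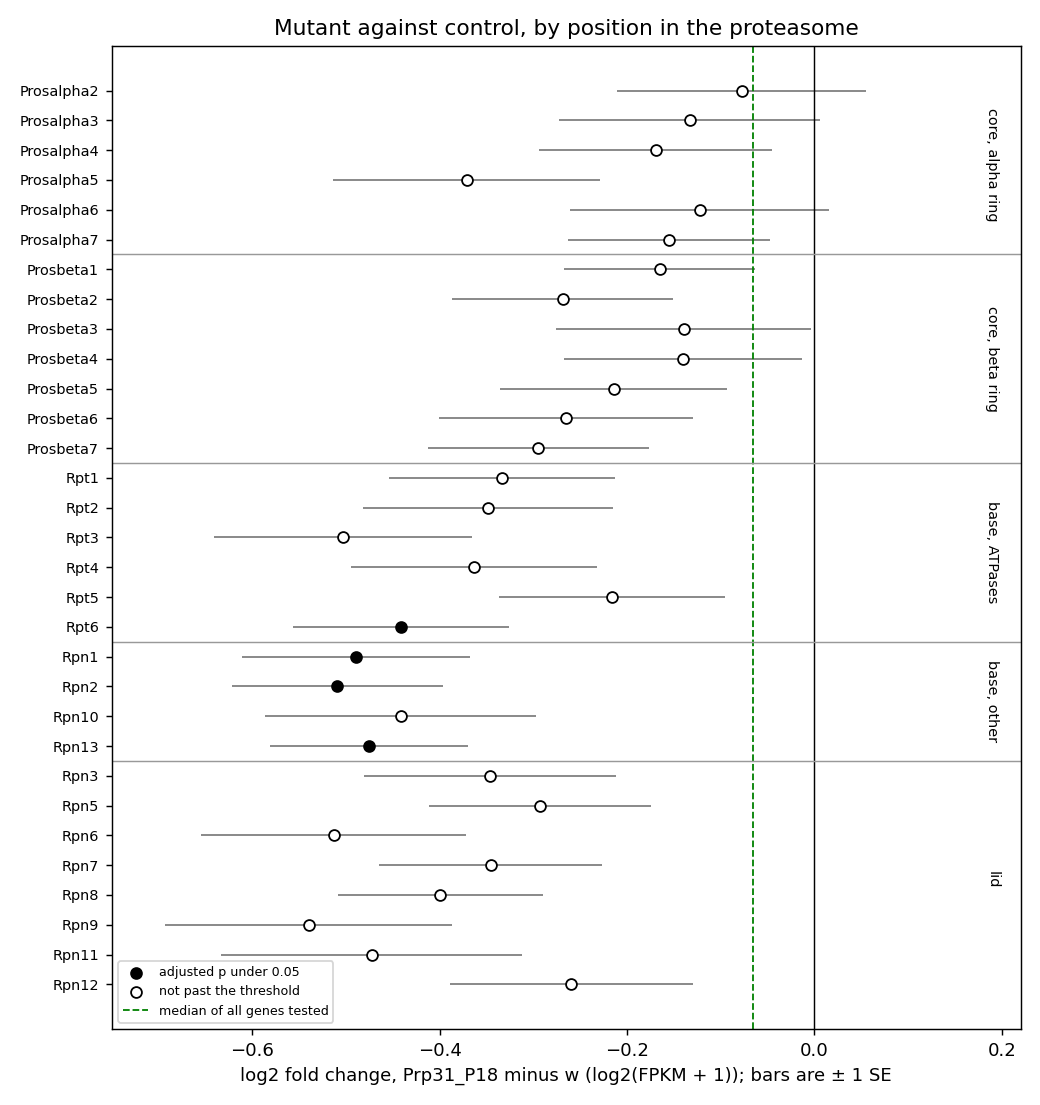
Log2 fold change, Prp31_P18 minus w, on the log2(FPKM + 1) scale for each of the 31 subunits, ordered by ring or subcomplex. Points are estimates from 3 libraries a group, bars are ± 1 SE, filled points are the 4 past the threshold, and the dashed line is the median of all genes tested at -0.07; the 13 core subunits lie between -0.37 and -0.08 and the 18 regulatory subunits between -0.54 and -0.22.

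No core subunit passed the test, beside 7.81% of all genes tested that were called as lower. At an unadjusted p under 0.05 in limma 2 of 13 (15.4%), Prosalpha5 and Prosbeta7, were lower, beside 19.2% of all genes tested. In none of the 13 were mutant and control libraries separate, beside 21.8% of all genes tested whose mutant libraries all lay below the control libraries. In the regulatory particle 10 of 18 subunits (55.6%) were separate in that direction. The median log2 fold change was -0.17 for the core particle (-0.14 for alpha and -0.21 for beta subunits) and -0.42 for the regulatory particle (-0.36 for the ATPases, -0.48 for the other base subunits and -0.37 for the lid).

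Prosalpha5 stood out among the gating alpha subunits. It had 66.4, 94.3 and 74.1 FPKM in mutant heads, against 107, 90.3 and 105 FPKM in control heads. Control replicate 2 lay below mutant replicate 2, and the gene did not pass (-0.37, SE 0.14, limma adjusted p = 0.145). Prosalpha2 lay nearest to 0 of all subunits, with 62.6, 81.7 and 72.7 FPKM in the mutants, against 80.4, 65.5 and 83.2 FPKM in the controls (-0.08, SE 0.13, limma adjusted p = 0.736). Here the groups overlapped almost fully. Prosalpha4, Prosalpha7, Prosalpha3 and Prosalpha6 had log2 fold changes of -0.17, -0.16, -0.13 and -0.12, and Prosalpha6 was the least abundant of the alpha subunits at 58.2 ± 7.06 FPKM in the mutants and 63.7 ± 9.49 FPKM in the controls (SD, n = 3 each).

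The 3 catalytic beta subunits did not pass either. Prosbeta5, which carries the chymotrypsin-like site, was the most abundant of the 31 transcripts per length, with 103, 128 and 107 FPKM in mutant heads, against 135, 116 and 142 FPKM in control heads (-0.21, SE 0.12, limma adjusted p = 0.293). Mutant replicate 2 lay within the control range. Prosbeta2, with the trypsin-like site, had 49.9, 63.7 and 52.6 FPKM in the mutants, against 71.4, 59.9 and 68.9 FPKM in the controls (-0.27, SE 0.12, limma adjusted p = 0.192). Prosbeta1, with the caspase-like site, had 63.2, 72.0 and 69.3 FPKM in the mutants, against 81.3, 68.2 and 80.6 FPKM in the controls (-0.17, SE 0.10, limma adjusted p = 0.328). Both overlapped between groups. The non-catalytic Prosbeta7 had the largest fold change of the ring, with 58.1, 74.0 and 64.8 FPKM in mutant heads, against 85.2, 71.8 and 84.8 FPKM in control heads (-0.29, SE 0.12, limma adjusted p = 0.159). Prosbeta6 had 64.5, 86.0 and 71.9 FPKM in the mutants, against 97.2, 77.2 and 92.8 FPKM in the controls (-0.26, SE 0.14, limma adjusted p = 0.253). In both genes the mutant values reached the control range through replicate 2 of either group. Prosbeta4 and Prosbeta3 lay at -0.14 each.

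The 4 calls depended on which libraries were included. Without mutant replicate 2, 10 of the 31 subunits fell, all regulatory, beside 5.62% of all genes: Rpn1, Rpn2, Rpn6, Rpn8, Rpn9, Rpn10, Rpn11, Rpn13, Rpt3 and Rpt6. Without control replicate 3, 5 fell, the 4 above and Rpt3, beside 16.3% of all genes. Without mutant replicate 1, mutant replicate 3, control replicate 1 or control replicate 2 none passed, and the limma adjusted p of the 4 genes lay at 0.0887 to 0.123, 0.105 to 0.151, 0.112 to 0.183 and 0.0517 to 0.0753. In these 4 fits 4.28%, 3.76%, 3.17% and 4.04% of all genes tested were called as lower. With median-ratio scaling none passed either (limma adjusted p 0.0551 to 0.109), beside 5.36% of all genes. With quantile normalization 5 fell, the 4 above and Rpn6, beside 5.52% of all genes. At an unadjusted p under 0.05 in limma, 8, 8, 8 and 21 of the 31 were lower in the 4 fits without a library, beside 20.5%, 13.1%, 12.7% and 13.7% of all genes, and 10 with median-ratio scaling, beside 13.3%. In each of the 14 alternatives 30 or 31 of the 31 fold changes were below 0, and the exception was Prosalpha2 without mutant replicate 1 (0.02). The alternatives reuse the same libraries and the subunits moved together, so these signs are not independent of each other. Without these changes 64.1% of all genes tested were below 0, and this share was not computed for the alternatives.

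The balance between the transcripts of the core and regulatory subunits separated the genotypes. The mean log2 level of the 18 regulatory subunits minus that of the 13 core subunits was -0.26, -0.24 and -0.34 in mutant replicates 1 to 3, against -0.04, -0.03 and -0.13 in control replicates 1 to 3. All 3 mutant libraries lay below all 3 control libraries, also mutant replicate 2, whose subunit levels as a whole overlapped with the controls. The mean was -0.28 ± 0.05 in mutant heads and -0.07 ± 0.05 in control heads (SD, n = 3 each), a difference of -0.21. As a ratio within a library, it depends little on how libraries are scaled. It was -0.21 with median-ratio scaling and with quantile normalization, and -0.24 to -0.18 with each library left out in turn. No p-value was computed for this summary, since the members were chosen with results of these data known. It shows a shift between the transcript levels of core and regulatory subunits, and not which of these changed. Proteins and assembled particles were not measured.

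**Figure D3:**
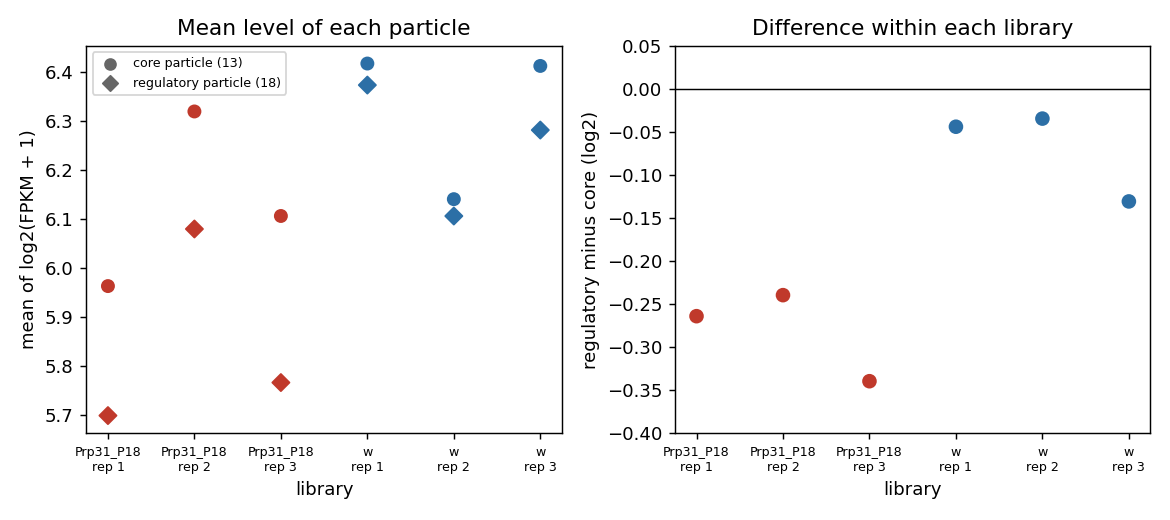
Left, the mean of log2(FPKM + 1) over the 13 core (circles) and 18 regulatory (diamonds) subunits in each library, Prp31_P18 in red and w in blue. Right, the regulatory minus the core mean in the same libraries, -0.34 to -0.24 in the 3 mutant libraries and -0.13 to -0.03 in the 3 control libraries.

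Relative to the mean of the 31 subunits in the same library, 8 regulatory subunits were lower in all mutant than in all control libraries: Rpn9 (by a log2 difference of -0.22), Rpn6 (-0.20), Rpn2 (-0.19), Rpt3 (-0.19), Rpn1 (-0.17), Rpn13 (-0.16), Rpn11 (-0.16) and Rpt6 (-0.13). Another 8 subunits, all of the core, were higher in all mutant libraries on this scale, led by Prosalpha2 (0.24), Prosalpha6 (0.19), Prosalpha3 (0.18) and Prosbeta3 (0.18). The division was not exact. Rpt5 (0.10), of the base, was relatively higher in mutants together with the core subunits, while Prosalpha5 (-0.05) was the core subunit with the lowest relative value. The remaining 9 regulatory and 5 core subunits, Prosalpha5 among them, overlapped between groups. These relative values have a mean of 0 by construction and were not tested. No share of all genes was computed on this scale, and a higher relative value is not a higher FPKM. In FPKM, none of the 31 was higher in all mutant than in all control libraries, beside 9.46% of all genes tested. Lower in all mutant libraries were 10 of the 31, beside 21.8% of all genes tested.

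**Figure D4:**
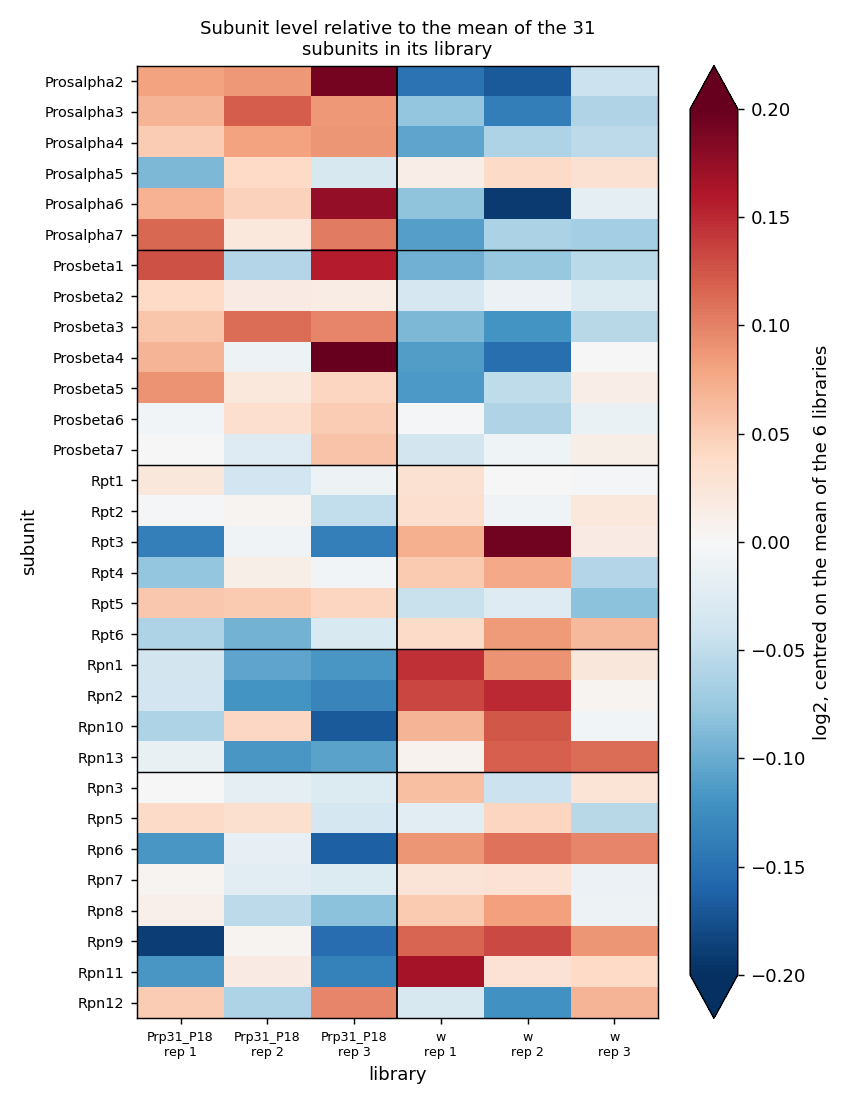
Level of each of the 31 subunits relative to the mean of all 31 in the same library, in log2 and centred on the mean of the 6 libraries, with mutant libraries left of the line and control libraries right of it (the colour scale ends at -0.20 and 0.20). Core subunits, in the upper 2 blocks, are mostly above 0 in mutant libraries, and most of the base and lid rows with a clear difference are below 0.

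The regulatory genes are also the longer ones. The longest annotated transcripts of the core subunits measure 815 to 1215 bases and those of the regulatory subunits 995 to 3412 bases. Across the 31 subunits, the log2 fold change correlated with log2 transcript length at a Pearson r of -0.70, within the 13 core subunits at -0.18 and within the 18 regulatory subunits at -0.35, as a description across genes that share their libraries. Among all tested genes with transcripts of 815 to 1215 bases the median log2 fold change was -0.04 (1124 genes), and among those of 995 to 3412 bases it was -0.06 (4967 genes). Their part in the difference between the particles was not tested. The subunit genes have few introns, at most 2 in 26 of the 31 and at most 4 in any, and the Spearman rho of fold change with intron number across the 31 was -0.16.

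By position, the 31 genes lie on all the major arms, with 9 on 2R, 9 on 3R, 5 on 3L, 4 on 2L and 4 on X, and the 4 that fell lie on 4 different arms. The medians by arm were -0.24 on 2L, -0.33 on 2R, -0.27 on 3L, -0.29 on 3R and -0.40 on X. A genetic background shared by both groups is not given in the sources used here. At all 31 genes the mutation and other differences between the strains therefore cannot be told apart. On 3L, the arm of Prp31, Prosbeta2 lies 158 kb, Rpn12 1422 kb, Prosbeta6 1448 kb, Rpn1 4754 kb and Rpn10 6376 kb from that gene. At these 5 genes such differences include variants at the gene itself that are linked to Prp31. Of the 5, Rpn1 fell. Of the 31 genes, 14 share bases with a gene on the opposite strand and Rpt1 with CG17985 on the same strand.

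The paralogues had low values in heads of either genotype. The 9 that did not pass the filter had no value above 0.323 FPKM in any library, the highest being that of Rpt3R in control replicate 1. Prosbeta4R2 and Rpn12R were listed at 0 in all mutant libraries, and in control libraries at 0, 0.05 and 0 FPKM and at 0, 0.091 and 0.041 FPKM. Prosbeta2R2 had 0, 0.047 and 0.024 FPKM in mutant heads, against 0.099, 0.12 and 0.131 FPKM in control heads, which were separate but too low to be tested. Prosalpha4T2, Prosalpha6T, Prosbeta2R1, Prosbeta5R1 and Rpn13R overlapped between groups. Rpt6R, the only paralogue above the filter, had 0.894, 2.89 and 0.969 FPKM in mutant heads, against 2.56, 1.57 and 1.58 FPKM in control heads. Its groups overlapped, and it did not pass (-0.23, SE 0.28, limma adjusted p = 0.624). With each library left out in turn its log2 fold change lay between -0.57 (without mutant replicate 2) and -0.05 (without mutant replicate 1), and with a pseudocount of 0.1 it was -0.41. Of 22 testis marker symbols 17 were in the table and none reached the filter, with a summed level of 1.65 to 2.10 FPKM in mutant and 2.12 to 11.8 FPKM in control libraries. The highest sum was that of control replicate 2, also the lowest control library of all 31 subunits, and the other 2 controls had 2.12 and 2.515 FPKM. The part of these transcripts in the subunit values was not tested.

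Beyond the named subunits, Sem1, a small lid component outside the naming rule, had a fold change within the range of the regulatory subunits, with 74.9, 103 and 79.9 FPKM in mutant heads, against 127, 101 and 120 FPKM in control heads. It did not pass (-0.44, SE 0.14, limma adjusted p = 0.0991), and mutant replicate 2 lay just above control replicate 2. The other 5 tested genes of assembly and regulation had values nearer to 0 and did not pass limma, also at an unadjusted p under 0.05. At that p 19.2% of all genes tested were lower and 8.14% higher. The log2 fold change of Pomp, the maturation factor of the core, was -0.13 (SE 0.10; adjusted p = 0.427 by limma), that of REG, an alternative activator, was -0.06, and that of PI31, whose product binds and regulates the core, was -0.03.

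None of the 7 genes of proteasome transcription control passed limma, beside 7.81% of all genes tested called as lower and 3.53% called as higher. The transcription factor gene cnc averaged 6.71 ± 0.333 FPKM in the mutants and 6.62 ± 0.408 FPKM in the controls (SD, n = 3 each; log2 fold change 0.02, SE 0.08, limma adjusted p = 0.905). Keap1, whose product restrains Cnc, had a log2 fold change of 0.02, and maf-S, the partner of Cnc, one of -0.10. At an unadjusted p under 0.05 in limma, TER94 was lower (-0.27) and sip3 higher (0.19), beside 19.2% and 8.14% of all genes tested.

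Of the 14 tested ubiquitin, E1 and E2 genes 2 fell and none rose, beside 7.81% and 3.53% of all genes tested. Both encode polyubiquitin. Ubi-p5E had 156, 145 and 136 FPKM in mutant heads, against 226, 180 and 228 FPKM in control heads (-0.53, SE 0.13, limma adjusted p = 0.0353). Ubi-p63E had 58.5, 61.3 and 55.9 FPKM in the mutants, against 82.1, 70.4 and 80.1 FPKM in the controls (-0.40, SE 0.09, limma adjusted p = 0.0323). Both were separate between groups. Their repeats are near-identical to each other, so the division of reads between them is uncertain. Without any 1 of mutant replicates 1, 2 and 3 and control replicate 1, neither passed, with limma adjusted p of 0.0721 to 0.144, and under median-ratio scaling neither did (0.0591 and 0.0622). With quantile normalization Ubi-p5E did not pass (0.0581) and Ubi-p63E did (0.0297). The ubiquitin-ribosomal fusion genes RpL40 and RpS27A had log2 fold changes of 0.23 and 0.28, and the E1 gene Uba1 one of 0.03; none of these passed.

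Of 7 shuttle and segregase genes 1 fell, beside 7.81% of all genes tested. This was Ufd1-like, a cofactor of the segregase that extracts ubiquitinated proteins. It had 34.4, 37.5 and 33.2 FPKM in mutant heads, against 48.1, 42.2 and 45.9 FPKM in control heads (-0.36, SE 0.09, limma adjusted p = 0.0343), and its call was lost without mutant replicates 1, 2 or 3 or control replicates 1 or 2 (0.0569 to 0.151) and with median-ratio scaling (0.0665). TER94, the segregase itself, had 68.6, 81.5 and 71.9 FPKM in the mutants, against 94.5, 83.9 and 90.4 FPKM in the controls, which were separate but did not pass (limma adjusted p = 0.123).

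Among 12 cullin ligase genes Cul2, a scaffold of ubiquitin ligases, fell and none rose, beside 7.81% and 3.53% of all genes tested. It had 18.9, 16.8 and 16.3 FPKM in mutant heads, against 34.3, 33.5 and 33.9 FPKM in control heads, with a narrow spread in both groups. The log2 fold change was -0.93 (SE 0.08, limma adjusted p = 0.000442), and it passed in all 14 alternatives, from -0.99 to -0.86. None of the 8 genes of the COP9 signalosome, a complex related in structure to the lid, passed. None of them was past an unadjusted p of 0.05 in limma, beside 19.2% of all genes tested that were lower and 8.14% that were higher. Their log2 fold changes lay between -0.10 and 0.16 with a median of 0.01, with the most abundant members CSN1b and CSN6 at 0.02 and -0.01. None of the 7 tested deubiquitinase genes passed limma or an unadjusted p of 0.05, beside the same shares of all genes tested. Their median was -0.03, with Uch at -0.05 and Usp7 at -0.05.

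**Figure D5:**
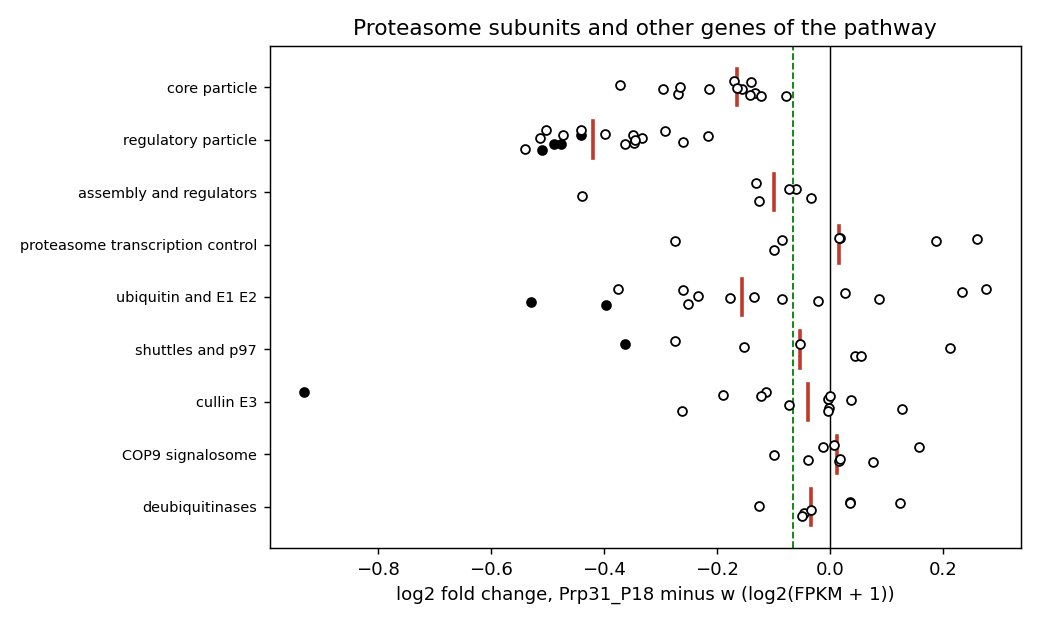
Log2 fold change, Prp31_P18 minus w, on the log2(FPKM + 1) scale for the tested genes of each list, with vertical jitter; filled points passed the threshold, red bars are list medians and the dashed line is the median of all genes tested. The regulatory particle has a median of -0.42, the core particle one of -0.17, and the COP9 signalosome one of 0.01.

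Marker lists of other tissues were measured beside the subunits. Of all genes tested 7.81% were called as lower and 3.53% as higher. At an unadjusted p under 0.05 in limma these shares were 19.2% and 8.14%. Of 7 tested muscle genes 4 fell (Act88F, Act79B, Mlp84B and Act87E), with a median log2 fold change of -0.82 and a summed level of 333 to 432 FPKM in mutant and 424 to 752 FPKM in control libraries. The astrocyte gene alrm was the only 1 of 5 glial genes to fall (-0.69), with summed glial levels of 437 to 504 FPKM in mutant and 499 to 661 FPKM in control libraries. Eaat1 was lower at an unadjusted p under 0.05 with separate groups, but did not pass (-0.53, limma adjusted p = 0.0578). The fat body list, dominated by the yolk protein genes Yp1 to Yp3, summed to 17211 to 46111 FPKM in mutant and 3586 to 19465 FPKM in control libraries, highest in mutant replicate 3 and control replicate 3, and none of its 4 tested genes passed, with all 4 higher at an unadjusted p under 0.05 in limma. The 6 neuronal genes gave no call in limma, with nSyb lower at an unadjusted p under 0.05 (median -0.17, summed level 152 to 200 FPKM in mutant and 188 to 224 FPKM in control libraries). Of 12 photoreceptor genes Rh4 and Rh6 rose, while Rh5 was lower at an unadjusted p under 0.05 in limma and did not pass (-0.44). The list, most of it ninaE and Arr2, summed to 23261 to 29778 FPKM in mutant and 19661 to 22924 FPKM in control libraries. Of 9 ovary genes with a row, the chorion gene Cp19 was the only 1 tested, and it fell. The list summed to 0.624 to 1.58 FPKM in mutant and 3.44 to 7.90 FPKM in control libraries, of which Cp19 held 0.058 to 0.341 FPKM in mutant and 2.78 to 7.14 FPKM in control libraries. The other ovary genes, all untested, did not share 1 direction. Of these, otu was higher in all mutant than in all control libraries, and Cp38 and vas were lower. No symbol of these lists that was in the table was at 0 in all 6 libraries. The part of these markers in the subunit values was not tested.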

How the data were processed

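Per the submitters' processing notes, reads went through CASAVA 1.8 and STAR 2.5.2b, and the build was BDGP6. The authors deposited FPKM per gene and library, with replicates not pooled. The tool behind the FPKM, its annotation release and its use of strand were not given in the sources used here. Per the labels' protocols, libraries were strand-specific, amplified with 15 PCR cycles and read as 75 base single reads.

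Since FPKM are not counts, log2(FPKM + 1) was compared with limma 3.58.1 (R 4.3.3, variance trend) in 3 mutant and 3 control libraries. Genes averaging under 1 FPKM were left out, which kept 8465 of 11836, and p-values were adjusted over these by Benjamini-Hochberg (threshold 0.05). The limma step was tested on simulated data. Members and lists were chosen with earlier results of these data known. Full statistics were given by rule for called subunits, for the largest changes and the most and least abundant members of each subcomplex, and in other lists for up to 4 called genes or the 2 most abundant. Sem1, Pomp, REG, PI31, cnc, Keap1, maf-S, TER94, sip3, RpL40, RpS27A and Uba1 were named after their values were seen where the rule did not take them.

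Positions come from the Ensembl annotation of BDGP6, in which all 41 genes were found. Promoter and protein sequences were not used here. The 14 alternatives changed the pseudocount (0.1, 0.5), the filter (none, 5 FPKM), the scaling (median ratio, quantile), the variance trend (none) or the replicate number (as a block), or left out 1 library. The particle balance and its alternatives were added after seeing the data.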

Additional observations from a re-analysis of the deposited data

How the results depend on the processing

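The number of subunits that fell was 4, and became 2 with no filter (5.84% of all genes), 2 with the replicate number as a block (8.69%), where Rpn1 (limma adjusted p = 0.0654) and Rpt6 (0.0748) lost their calls as they did with no filter (0.055 and 0.0596), 0 with median-ratio scaling and 0 to 10 with each library left out in turn; no subunit was called as higher in any alternative. With a filter of 5 FPKM 3 fell (6.79%), and Rpt6 lost its call (limma adjusted p = 0.0595). Quantile normalization gave 5 (5.52%), the 4 and Rpn6 (0.0451). Ufd1-like lost its call with the block (0.052). All genes called as lower were 417 with a filter of 5 FPKM and 268 to 1383 with each library left out, and those called as higher 144 to 838. The medians of both particles and the difference between them moved by less than the spread between replicates in all alternatives computed. The core median ranged from -0.26 to -0.09 and the regulatory median from -0.52 to -0.35. Leaving out 1 library can hardly move a group mean by more than that spread. The filter, the variance trend and the block left the medians unchanged. The comparison with the spread is therefore no test of stability. A fit without 1 library has 5 libraries in place of 6; otherwise the cause was not tested. Signs changed in 5 named genes that had not passed: CSN6 was 0.0611 with median-ratio scaling, 0.0521 with quantile normalization and -0.0465 to 0.03 with each library left out, Uch 0.0285, 0.0016 and -0.1766 to 0.0404, and Usp7 0.0239 with median-ratio scaling, while with each library left out CSN1b was -0.0554 to 0.1091 and Prosalpha2 -0.1831 to 0.0202. Same-numbered mutant and control libraries deviated together with correlations of -0.01, 0.21 and 0.32 across genes, and 1 of the 3 mutant libraries correlated best with its own number, so the numbers were not used as pairs. No depth per library was given, so low values such as those of the paralogues have no counting interval.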
